A study of Homo sapiens with 24 samples.

Results

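The response of miRNAs to RELA knockdown was compared between adherent and spheroid culture of OV90 cells, a long-established line of epithelial ovarian cancer. The comparison was an interaction: the change with RELA knockdown in spheroids minus the change with RELA knockdown in adherent cells, on the log2 scale. It drew on 16 of the 24 small RNA libraries of the series, 4 in each of 4 groups. These were adherent shNeg, adherent shRELA, spheroid shNeg and spheroid shRELA, and the remaining 8 libraries carried an shRNA against RELB in the same cultures. All groups carried a doxycycline-inducible shRNA and were given 1 µg/ml doxycycline for 72 h. The shNeg libraries, whose genotype the labels give as wild type, held the negative control shRNA. Adherent cells grew in serum, and spheroids grew in low-attachment plates in a medium with serum replacement, EGF and FGF, which the study uses to raise the share of tumor-initiating cells. The medium and the attachment therefore changed together and cannot be told apart. The labels do not say whether the 4 replicates of a group came from separate cultures, so the tests below measure the spread between these libraries only. MiR-seq does not read RELA mRNA, so the depth of the knockdown in each culture is not known from these data.

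MiRNAs are short RNAs cut from hairpin precursors that hold back the translation of mRNAs and shorten their life. Their target choice rests mainly on the seed, bases 2 to 8 of the mature strand. RELA is the DNA-binding subunit that carries canonical NF-κB signaling, the inflammatory pathway that is often active in ovarian cancer, and miR-146a and miR-155 are among the best known miRNAs induced by it. RELB serves the non-canonical arm of the pathway.

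In the interaction, 69 miRNAs of 905 tested passed the threshold of an FDR below 0.01 and an absolute log2 value above 1 (7.62%; edgeR's quasi-likelihood test with Benjamini-Hochberg adjustment). Of these, 39 were positive (4.31%), which means more up or less down with RELA knockdown in spheroids than in adherent cells. The other 30 were negative (3.31%). The miRNAs with positive values included let-7a-5p, let-7f-5p, let-7g-5p and miR-98-5p, miR-200b-3p and miR-200c-3p, miR-146a-5p and miR-146b-5p, miR-221-3p and miR-222-3p, miR-26a-5p and miR-26b-5p, both arms of miR-378a, and miR-99a-5p and miR-125b-5p. Among the negative ones were miR-760, miR-1275, miR-92b-5p and miR-483-5p, which stood higher in spheroid than in adherent shNeg libraries, fell with RELA knockdown in spheroids and were not called in adherent cells. The 10 positive and 11 negative calls not described below ranged from 1.01 to 2.64 and from −3.61 to −1.30 on the log2 scale.

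Mature sequences of the called miRNAs that the results turn on are shown 5′ to 3′ with the seed in capitals, as RefSeq gives them for GRCh38.p14. Called members that share a seed come first, since such miRNAs can address the same targets, and they were called in the same direction. Members that were not called are not shown. Of the tested miRNAs with the let-7 seed, 4 of 10 were called, and with the miR-200b-3p seed 2 of 3. For the seeds of miR-146a-5p, miR-221-3p and miR-26a-5p it was 2 of 2 each. These are the seeds with more than 1 called member, and 7.62% of all miRNAs tested were called. Each other seed among the calls had 1 called member, from 1 of 1 tested to 1 of 6. The latter held for the seeds of miR-16-5p, miR-17-5p and miR-378a-3p.
let-7a-5p: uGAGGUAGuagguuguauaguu
let-7f-5p: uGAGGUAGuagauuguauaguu
let-7g-5p: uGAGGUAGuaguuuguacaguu
miR-98-5p: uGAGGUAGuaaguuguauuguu
miR-200b-3p: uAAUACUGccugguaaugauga
miR-200c-3p: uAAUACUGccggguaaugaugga
miR-146a-5p: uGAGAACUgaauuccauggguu
miR-146b-5p: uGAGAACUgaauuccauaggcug
miR-221-3p: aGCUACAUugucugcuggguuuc
miR-222-3p: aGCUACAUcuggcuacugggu
miR-26a-5p: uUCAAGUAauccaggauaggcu
miR-26b-5p: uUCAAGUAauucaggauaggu
miR-378a-3p: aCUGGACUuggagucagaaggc
miR-99a-5p: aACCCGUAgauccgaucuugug
miR-125b-5p: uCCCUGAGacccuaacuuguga
miR-145-5p: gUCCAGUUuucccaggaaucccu
The negative set is shown for contrast. Of those printed, miR-335-5p is the poorest in G and C, and no seed occurs more than once among the 25 negative calls with a sequence.
miR-760: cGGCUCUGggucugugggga
miR-1275: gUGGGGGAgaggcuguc
miR-1306-5p: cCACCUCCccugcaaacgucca
miR-92b-5p: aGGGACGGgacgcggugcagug
miR-193b-5p: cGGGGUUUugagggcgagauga
miR-589-5p: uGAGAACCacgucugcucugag
miR-335-5p: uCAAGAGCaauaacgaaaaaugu

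The libraries differed in depth between the cultures. Totals ran from 3797175 to 8283549 counts in the adherent libraries of the 4 groups, from 2024133 to 2747599 with spheroid shRELA and from 959141 to 1580252 with spheroid shNeg. A count of 0 therefore allows up to 2.29 CPM (counts per 1000000 of a library's TMM-scaled total) in the spheroid shNeg library of lowest depth. Spheroid shNeg replicate 1 stood apart, with 432 miRNAs detected where replicates 2 to 4 had 813 to 885, and with 69.3% of its counts on its 10 most abundant miRNAs against 61.4% to 61.9%. The interaction was therefore also fitted without it. It then gave 77 calls of 900 tested (8.56%), 43 positive (4.78%) and 34 negative (3.78%), and 64 of the 69 were among them. Unless stated otherwise, changes within 1 culture, counts of patterns and arms, base composition and RELB interaction values below rest on all libraries. The split of directions depended on how the libraries were scaled. The median log2 interaction of all 905 miRNAs was 0.17 with the TMM scaling used here, −0.02 with median-ratio size factors and −0.10 with library totals alone, and the calls split into 39 positive and 30 negative, 23 and 43, and 19 and 50, in that order. CPM below are TMM-scaled, and values in a row follow replicates 1 to 4.

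**Figure D1:**
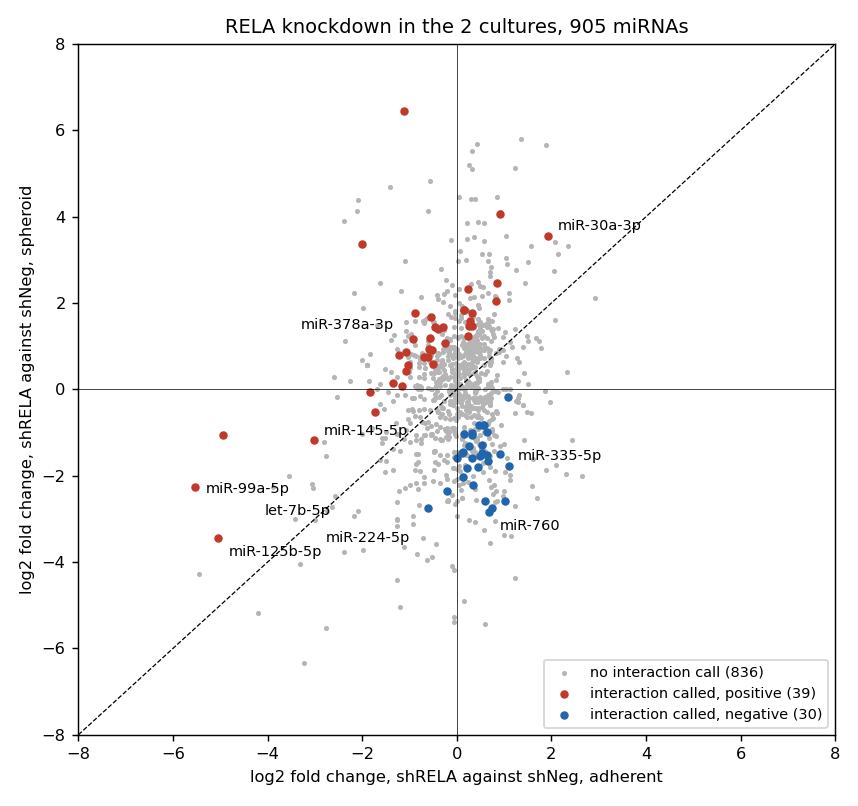
Log2 fold change with RELA knockdown in adherent culture (x axis) and in spheroid culture (y axis) for the 905 miRNAs tested, each point 1 miRNA. The dashed line marks equal change, 39 miRNAs called with a positive interaction lie above it and 30 called with a negative one lie below it, while miR-224-5p and let-7b-5p, which fell in both cultures, lie near it.

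The 69 calls arose in different ways. Among the 39 positive ones, 20 rose with RELA knockdown in spheroids and were not called in adherent cells, 9 fell in adherent cells and were not called in spheroids, 7 were called in neither culture alone, 2 fell in both and 1 rose in both. Among the 30 negative ones, 24 fell in spheroids and were not called in adherent cells, 5 were called in neither culture alone and 1, let-7d-3p, rose in adherent cells. No miRNA was called in both cultures in opposite directions. The spheroid change was the larger in size for 56 of the 69, and for 643 of all 905 miRNAs tested. As background, RELA knockdown gave 137 calls of 905 in spheroids (15.1%), 68 up (7.51%) and 69 down (7.62%), and 34 in adherent cells (3.76%), 10 up (1.1%) and 24 down (2.65%). Without spheroid shNeg replicate 1 there were 114 calls of 900 in spheroids, 55 up and 59 down, and 98 of the 137 were among them. Where libraries below are said not to overlap, the same held for 22.5% of all tested miRNAs between shRELA and shNeg in spheroids and for 20.7% in adherent cells.

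Let-7 miRNAs restrain growth and stem-like programs by repressing targets such as HMGA2, RAS genes and LIN28. Let-7a-5p was measured at 86485, 80195, 81872 and 80284 CPM in adherent shNeg libraries and at 104633, 100082, 90146 and 117194 CPM with adherent shRELA. In spheroids, it was at 55211, 56319, 57678 and 49754 CPM with shNeg and at 123181, 165838, 150856 and 162889 CPM with shRELA. All 4 spheroid shRELA libraries lay above every other library, and shRELA and shNeg did not overlap in either culture. The log2 interaction of let-7a-5p was 1.14 ± 0.19 (SE, n = 4 per group, FDR 9.67e-05), from a change of 1.46 in spheroids and 0.33 in adherent cells.

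Let-7g-5p, let-7f-5p and miR-98-5p, which share its seed, were less abundant. Let-7g-5p rose in spheroids from 1457, 3914, 4176 and 3683 CPM to 9024, 10618, 10409.7 and 9455 CPM, while its adherent libraries overlapped at 7394 to 10316 CPM with shNeg and 7429 to 12899.8 CPM with shRELA. Let-7f-5p and miR-98-5p had adherent changes of 0.82 and 0.85, below the fold threshold, against rises of 2.04 and 2.46 in spheroids. In these 3 miRNAs, spheroid shRELA libraries came near the level of adherent shNeg libraries. Their log2 interactions were 1.29 ± 0.30, 1.22 ± 0.28 and 1.61 ± 0.34 (SE, FDR 0.00323, 0.00274 and 0.00108). Let-7a-5p, let-7f-5p and let-7g-5p kept their sign but lost their calls with size factors (0.92, 1.02 and 1.08) and with library totals (0.86, 0.98 and 1.01), and miR-98-5p kept its call under both (1.41 and 1.34). Let-7g-5p also lost its call without adherent shRELA replicate 3 (1.15, FDR 0.011).

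Of the 9 let-7 and miR-98 miRNAs tested, 4 were called positive and none negative, beside 4.31% and 3.31% of all miRNAs tested, with a median log2 interaction of 0.85 against 0.17 for all miRNAs. Without spheroid shNeg replicate 1 the same counts held, with a median of 0.91. The 5 that were not called ranged from −0.74 to 0.85. Let-7b-5p fell in both cultures. Its adherent libraries went from 1245, 1156, 1328 and 1334 CPM to 299, 308, 287 and 302 CPM, and its spheroid libraries from 6197, 3572, 3653 and 3149.7 CPM to 560.4, 577, 623 and 579 CPM. Its log2 interaction was −0.74 ± 0.25 (FDR 0.0408), not a call, and −0.48 without spheroid shNeg replicate 1. Let-7c-5p also fell in both, by 1.57 in adherent cells and 1.13 in spheroids on the log2 scale. Let-7d-3p, the other arm of the let-7d hairpin, was called with the opposite sign (−1.26 ± 0.30, FDR 0.00362), although the let-7d hairpin (chr9:94178834-94178920) lies beside those of let-7a-1 (chr9:94175957-94176036) and let-7f-1 (chr9:94176347-94176433) in exons of the lncRNA MIRLET7A1HG. The call of let-7d-3p was lost without 6 of the 16 libraries in turn, over which its value was −1.34 to −0.97.

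The miR-200 family maintains the epithelial state by repressing ZEB1 and ZEB2. MiR-200c-3p was at 3129.9, 3137, 3151 and 3264 CPM in adherent shNeg libraries and at 2537, 1869.8, 2151 and 2639 CPM with adherent shRELA. In spheroids, it went from 1641, 2387, 2169 and 1941 CPM to 3376, 6294, 5751 and 6784 CPM. Knockdown libraries thus lay below the controls in adherent cells and above them in spheroids, with no overlap in either. Its log2 interaction was 1.91 ± 0.28 (FDR 2.92e-05), called in spheroids (1.45) and not in adherent cells (−0.46). Its relative miR-200b-3p, which shares the seed, was less abundant at 10.3 to 29.2 CPM in adherent libraries, with 0.733, 15.3, 13.3 and 11.9 CPM in spheroid shNeg and 21.1, 20.0, 11.6 and 23.2 CPM in spheroid shRELA. It was called in neither culture alone (0.86 and −1.08) but in the interaction (1.95 ± 0.49, FDR 0.00622). That call was lost with size factors (1.71), with library totals (1.62) and without adherent shNeg replicate 1 (1.97) or 4 (1.84), adherent shRELA replicate 2 (1.91) or spheroid shRELA replicate 2 (1.92) or 4 (1.90). Of 8 family members tested, 2 were called positive and none negative, beside 4.31% and 3.31% of all miRNAs tested. The median was 1.37, which included members near the detection floor. MiR-141-3p, cut from the same cluster as miR-200c, gave 0.90 ± 0.37 (FDR 0.104).

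MiR-146a-5p and miR-146b-5p are NF-κB targets that dampen the pathway through TRAF6 and IRAK1. With RELA knockdown they were lower in adherent cells and higher in spheroids. MiR-146b-5p went from 567, 471, 488 and 492 CPM to 234, 178, 184 and 265 CPM in adherent culture and from 107, 96.2, 128 and 106 CPM to 200.1, 179.6, 174 and 213 CPM in spheroids. The groups did not overlap in either culture, and the shRELA libraries of both cultures lay in 1 range between the adherent and spheroid controls. Its interaction was 2.04 ± 0.30 (FDR 2.92e-05), with a called fall of 1.23 in adherent cells and an uncalled change of 0.81 in spheroids. MiR-146a-5p was far more abundant. It went from 34252, 29056, 32466 and 31708 CPM to 23083, 18628, 18467 and 23788 CPM in adherent culture and from 11077, 12808, 15896 and 15556 CPM to 21204, 25288, 22197 and 24499 CPM in spheroids. Neither change passed the fold threshold alone (−0.60 and 0.75), and the interaction did (1.35 ± 0.24, FDR 0.000164). Both miRNAs were called in every alternative run.

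MiR-221-3p and miR-222-3p repress the cell cycle inhibitor CDKN1B and share a seed and a locus, at chrX:45746157-45746266 and chrX:45747015-45747124 in the lncRNA MIR222HG. MiR-222-3p was at 3049.6 to 3574 CPM in adherent shNeg, 2132 to 2415 CPM in adherent shRELA, 499, 1232, 1645 and 1473 CPM in spheroid shNeg and 2562, 2172, 2189 and 2153 CPM in spheroid shRELA. As with miR-146b-5p, the knockdown libraries of both cultures fell in 1 range between the controls. Its interaction was 1.43 ± 0.30 (FDR 0.000998). It was 1.18 without spheroid shNeg replicate 1, still a call, and the call was lost with library totals (1.11). MiR-221-3p gave 1.07 ± 0.27 (FDR 0.00532), and was no longer called without spheroid shNeg replicate 1 (0.85), adherent shNeg replicate 1 (1.04) or 3 (1.07) or adherent shRELA replicate 3 (1.02), nor with size factors or library totals. In the list of miRNAs linked to NF-κB, 4 of 10 tested were positive and none negative, beside 4.31% and 3.31% of all miRNAs tested, with a median of 1.02. Without spheroid shNeg replicate 1 it was 3 of 10, with a median of 0.76.

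Some miRNAs changed in the same direction in both cultures. MiR-155-5p, an inflammatory miRNA, rose in adherent cells by 2.34 and in spheroids by 3.31 on the log2 scale, and the difference was 0.97 ± 0.49 (FDR 0.191) and 0.59 without spheroid shNeg replicate 1. MiR-224-5p fell in adherent cells from 2157 to 2427 CPM in the controls to 247 to 340.2 CPM, and in spheroids from 1377 to 2116 CPM to 212 to 260.3 CPM. These falls of 2.99 and 3.03 left an interaction of −0.04 ± 0.28 (FDR 0.962), whose sign turned in some alternatives. MiR-452-5p, from the same GABRE locus, fell by 3.32 and 4.04, with an interaction of −0.72 ± 0.77 that became 0.30 without spheroid shNeg replicate 1. That library was at 39.6 CPM, against 6.16 to 8.42 CPM in the others of its group.

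MiR-26a-5p and miR-26b-5p, which repress EZH2, are cut from introns of CTDSPL, CTDSP2 and CTDSP1, a family of phosphatase genes (chr3:37969404-37969480, chr12:57824609-57824692 and chr2:218402646-218402722). MiR-26b-5p was at 27133 to 31258 CPM in adherent shNeg libraries and 16494 to 28996 CPM with adherent shRELA, which overlapped. In spheroids, it rose from 1024, 2661, 3493 and 3159 CPM to 6250.0, 7198, 6346 and 7273 CPM. All spheroid libraries lay below all adherent ones, and spheroid shRELA libraries lay between the spheroid controls and the adherent cells. The interaction of miR-26b-5p was 1.80 ± 0.32 (FDR 0.000164), 1.54 without spheroid shNeg replicate 1. MiR-26a-5p gave 1.33 ± 0.35 (FDR 0.00773). Its spheroid shNeg libraries ran at 1597, 5706, 7219 and 7034 CPM, its interaction was 1.03 without replicate 1, and the call was lost with size factors (1.12), with library totals (1.04) and without 6 of the 16 libraries in turn (1.19 to 1.36).

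**Figure D2:**
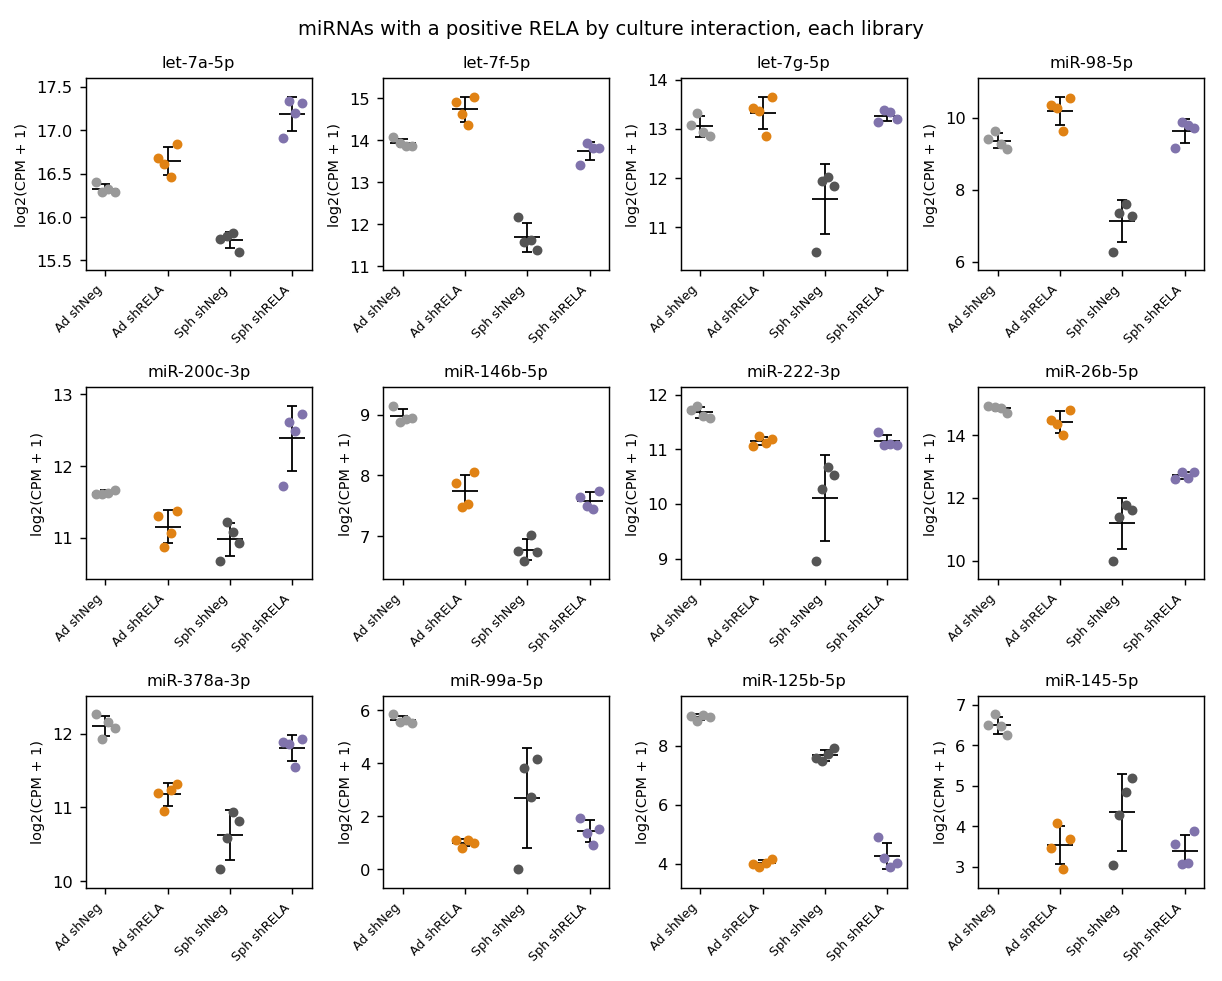
Each library's level as log2(CPM + 1), for 12 miRNAs with a positive interaction, in adherent (Ad) and spheroid (Sph) shNeg and shRELA groups. Points are libraries in the order of replicates 1 to 4, bars are the mean and SD of 4 libraries, and y axes differ between panels and do not start at 0. The spheroid shRELA libraries of let-7a-5p lie above all others, and miR-99a-5p and miR-125b-5p fall to like levels with shRELA in both cultures.

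MiR-378a sits in an intron of PPARGC1B (chr5:149732825-149732890), a coactivator gene of energy metabolism, and both of its arms were called. MiR-378a-3p went in adherent culture from 4897, 3907, 4543 and 4329.9 CPM to 2349.9, 1984, 2416 and 2549 CPM, and in spheroids from 1142, 1539.6, 1964 and 1798 CPM to 3774, 3709, 2997 and 3894 CPM. The groups were separate in both cultures and moved in opposite directions. The interaction was 2.08 ± 0.25 (FDR 1.13e-06), the lowest FDR of the 905 miRNAs, with 1.16 in spheroids, a call, and −0.93 in adherent cells, short of the fold threshold. MiR-378a-5p gave 1.49 ± 0.26 (FDR 0.000122), with a called fall of 1.08 in adherent cells and 0.42 in spheroids. Both calls held in every alternative run.

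Other positive values came from falls that were deeper in adherent cells. MiR-125b-5p, one of a family that shares ancestry with lin-4, went in adherent culture from 522, 463, 529.7 and 504 CPM to 14.9, 13.9, 15.2 and 16.7 CPM, and in spheroids from 191, 179, 210.3 and 243 CPM to 29.1, 17.3, 13.9 and 15.2 CPM. The shRELA libraries of the cultures ended at like levels, and the controls differed. The falls of 5.05 and 3.45 on the log2 scale gave an interaction of 1.60 ± 0.30 (FDR 0.000411), which was a call in every alternative run.

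MiR-99a-5p, which represses MTOR and lies in an intron of the lncRNA MIR99AHG (chr21:16539089-16539169), went from 56.0, 46.1, 48.2 and 44.7 CPM to 1.16, 0.763, 1.14 and 0.993 CPM in adherent culture. In spheroids, it went from 0, 13.0, 5.64 and 16.8 CPM to 2.81, 1.58, 0.895 and 1.90 CPM. The end levels were near or under the floor of a few counts in spheroid libraries, where a count of 0 allows 1.14 to 2.29 CPM. Its interaction was 3.27 ± 0.76 (FDR 0.00284). It was 2.89 without spheroid shNeg replicate 1 (still called) and 3.08 without spheroid shRELA replicate 1 (FDR 0.0158), where the call was lost, as it was with libraries thinned to the lowest total and with only the groups compared. Together with let-7a-5p, these were the 3 positive calls of 8 members in the miR-99/100, let-7 and miR-125 clusters, which had no negative call and a median of 0.63. Over all miRNAs tested, 4.31% were called positive and 3.31% negative. The 5 members not called ranged from −2.77 to 0.82. Both miR-100-5p (−2.77 ± 1.73, mean 2.99 CPM) and miR-99b-5p (−0.69 ± 0.27), which share the seed of miR-99a-5p, had negative values. MiR-125b-2-3p, the other arm of one of the miR-125b hairpins, gave 3.87 ± 0.91 (FDR 0.00301), at 9.86 to 11.5 CPM in adherent shNeg and 0 to 8.40 CPM elsewhere. That call was lost without spheroid shRELA replicate 4 (3.36, FDR 0.024), with limma, with thinned libraries and with only the groups compared.

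MiR-145-5p and miR-143-3p are cut from 1 cluster and mark mesenchymal cells. MiR-145-5p went in adherent culture from 89.2, 107, 87.3 and 75.8 CPM to 10.1, 15.8, 6.67 and 11.9 CPM, and in spheroids from 7.33, 18.3, 27.7 and 35.8 CPM to 10.8, 7.35, 7.61 and 13.7 CPM. It fell in adherent cells by 3.01 and was not called in spheroids, where the groups overlapped through replicate 1 of shNeg. Its interaction of 1.84 ± 0.47 (FDR 0.00639) was 1.56 without that library, still a call, and the call was lost with size factors (1.62), with library totals (1.54) and without adherent shNeg replicate 1 (1.84) or 3 (1.85), adherent shRELA replicate 3 (1.65), spheroid shNeg replicate 2 (1.83) or spheroid shRELA replicate 4 (1.70). MiR-143-3p fell in both, by 2.58 and 2.48, with an interaction of 0.10 ± 0.41 (FDR 0.90) that turned to −0.13 with size factors and was 0.38 without spheroid shNeg replicate 1. Whether the interactions of these 2 miRNAs differ from each other was not tested.

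MiR-891a-5p fell in adherent cells and was not called in spheroids. Its adherent libraries went from 13.9, 8.80, 11.3 and 12.9 CPM to 3.63, 3.05, 3.24 and 3.14 CPM, while its spheroid libraries held 9.13 to 16.9 CPM with shNeg and 10.3 to 16.8 CPM with shRELA. Its interaction was 1.78 ± 0.43 (FDR 0.00437), and the call was lost without adherent shNeg replicate 1 (1.68) or 4 (1.73), adherent shRELA replicate 2 (1.74) or spheroid shRELA replicate 2 (1.62). MiR-509-3p, also cut from an X-linked cluster, was higher in spheroids than in adherent cells, at 139.7 to 204 CPM in spheroid and 2.48 to 7.56 CPM in adherent libraries of the 4 groups. It gave 1.24 ± 0.33 (FDR 0.0087), from a called fall of 1.15 in adherent cells and 0.08 in spheroids, and lost its call with size factors (1.02), with library totals (0.97) and without adherent shNeg replicate 3 (1.30) or 4 (1.13) or adherent shRELA replicate 2 (1.18), 3 (1.23) or 4 (1.28).

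Arms of 1 hairpin did not always move together. MiR-29b-1-5p went from 11.7, 81.0, 105 and 138 CPM to 269.9, 269, 282 and 256 CPM in spheroids and stood at 239 to 315 CPM and 170.3 to 220.4 CPM in adherent shNeg and shRELA, with an interaction of 2.21 ± 0.46 (FDR 0.000941). Its partner miR-29b-3p, which is also cut from a further hairpin, gave −0.57 ± 0.40 (FDR 0.376). MiR-551b-5p went from 0, 9.16, 25.7 and 16.8 CPM to 82.0, 62.5, 58.6 and 67.6 CPM in spheroids while its adherent change was 0.24, for an interaction of 2.09 ± 0.49 (FDR 0.00298). MiR-551b-3p gave −0.48 ± 0.34 (FDR 0.381). The miR-551b-5p value without spheroid shNeg replicate 1, where it was at 0, was 1.69 and still called, and the call was lost with library totals (1.79). Over the 42 hairpins with both arms tested and at least 1 arm called, both arms were called in the same direction in 3, and the uncalled arm had the same sign in 22 and the opposite sign in 17. No hairpin had arms called in opposite directions. Hairpins that share mature miRNAs, such as those of let-7a, were counted separately, and some uncalled arms lay near the detection floor. Signs were not counted over all 207 hairpins with both arms tested, so these counts have no background beside them. Differences between the arms themselves were not tested.

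MiR-30a-3p was the call that rose in both cultures. It went from 39.8, 40.0, 49.3 and 43.3 CPM to 194, 144, 112 and 211 CPM in adherent cells and from 9.53, 13.0, 12.3 and 10.5 CPM to 126, 130.3, 145 and 137 CPM in spheroids. All shRELA libraries thus ended between 112 and 211 CPM, from control levels that differed. The interaction was 1.62 ± 0.31 (FDR 0.000414). Its partner arm miR-30a-5p rose by 2.06 and 2.74, with an interaction of 0.69 ± 0.28 (FDR 0.0981). MiR-30c-2-3p rose in both cultures as well (2.07 and 3.41) and became a call in the interaction without spheroid shNeg replicate 1 (2.0, FDR 0.0012; 1.34 and FDR 0.0699 with it).

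Some positive values rested on near absence in 1 group. MiR-10523-5p had no count in any spheroid shNeg library and 1.79 to 4.56 CPM in spheroid shRELA. With spheroid shNeg taken at the floor of 3 counts per library, it was 1.40-fold higher in spheroid shRELA, and its interaction was 3.02-fold. MiR-302d-3p, a stem cell miRNA, was at 0, 0, 0.513 and 0.702 CPM in spheroid shNeg and 7.50, 4.20, 6.27 and 6.08 CPM in spheroid shRELA, and its call was lost without spheroid shNeg replicate 1 (FDR 0.0182) and without 6 others of the 16 libraries in turn, with size factors and with library totals. MiR-3614-5p was at 0.165, 0.572, 0.571 and 0.165 CPM in adherent shRELA and had counts in 1 spheroid shNeg library, against 1.14 to 10.5 CPM in spheroid shRELA. The folds given for miR-10523-5p allow for counting error in spheroid shNeg only. The other groups, also on few counts, were taken at their means. MiR-17-5p, of the growth-promoting miR-17-92 cluster, was well measured and gave 1.45 ± 0.38 (FDR 0.00807), but lost its call without 7 of the 16 libraries in turn (1.26 to 1.50).

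MiR-760 had the lowest value of the negative calls with a mean of at least 10 CPM. It was at 4.15, 2.40, 3.95 and 3.44 CPM in adherent shNeg and at 5.78, 5.34, 6.28 and 5.46 CPM in adherent shRELA. Spheroid shNeg libraries held 949.8, 286, 185 and 164 CPM, and spheroid shRELA libraries 64.7, 48.9, 44.8 and 63.8 CPM. Spheroid controls were the highest group, with replicate 1 above the others, and the knockdown libraries lay below all of them but above every adherent library. The interaction was −3.52 ± 0.61 (FDR 0.000122), −2.60 without spheroid shNeg replicate 1.

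MiR-1275 had the same form, with 7.47 to 11.5 CPM in adherent shNeg, 12.1 to 19.6 CPM in adherent shRELA, 857, 311, 155 and 173 CPM in spheroid shNeg and 72.6, 56.7, 64.0 and 56.2 CPM in spheroid shRELA. Its interaction was −3.18 ± 0.53 (FDR 0.000122), −2.36 without replicate 1. MiR-92b-5p went in spheroids from 480.4, 161, 101 and 68.8 CPM to 47.8, 47.8, 45.7 and 34.6 CPM and lay at 6.40 to 14.7 CPM in adherent libraries. Its value of −2.54 ± 0.55 (FDR 0.00135) became −1.65 without replicate 1, a move of over 1.5 times, and remained a call. MiR-92b-3p, its abundant arm, lay at 141 to 238 CPM in all 4 groups and gave −0.29 ± 0.23 (FDR 0.434).

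MiR-483-5p, cut from within the growth factor gene IGF2, was among the most abundant miRNAs of the spheroid controls. It went there from 71803, 23246, 16082 and 12336 CPM to 10908, 8098, 8279 and 8003 CPM, against 678 to 1137 CPM and 1026 to 1733 CPM in adherent shNeg and shRELA. Spheroid shNeg replicate 1 stood far above the rest of its group. The interaction was −2.25 ± 0.46 (FDR 0.000748) and −1.41 without that library, a move of over 1.5 times, and a call in both. Its partner miR-483-3p gave −1.37 ± 0.26 (FDR 0.000414), but unlike it was higher in adherent than in spheroid libraries, at 8879.9 to 14066 CPM against 687 to 2594 CPM.

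MiR-1306-5p and miR-589-5p were likewise highest in spheroid shNeg replicate 1, at 102 CPM against 11.8 to 24.4 CPM and at 328 CPM against 101 to 148 CPM in the other 3 libraries. Their interactions were −3.49 ± 0.68 and −2.42 ± 0.48 (FDR 0.000472 and 0.000513). Without that library they were −2.29, a move of over 1.5 times, and −1.92, both called. For miR-589-5p the spheroid groups overlapped, since shRELA replicate 1 was at 112 CPM. MiR-193b-5p was not highest in that library, at 55.0, 64.9, 55.9 and 48.4 CPM in spheroid shNeg, 23.0, 17.3, 17.9 and 13.3 CPM in spheroid shRELA and 1.20 to 4.57 CPM in adherent libraries, with −2.30 ± 0.49 (FDR 0.00131) and −2.31 without it. The other arms, miR-1306-3p (0.32 ± 0.49) and miR-193b-3p (0.56 ± 0.37), were not called.

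MiR-6730-5p and miR-6734-5p were under 3 CPM in adherent libraries and fell in spheroids by 2.04 and 1.51. Their interactions of −2.16 (SE 0.55 and 0.57, FDR 0.00622 and 0.00781) lost their calls without 9 and 10 of the 16 libraries in turn, with values from −1.90 and −1.81. MiR-486-5p, an erythroid miRNA, was at 15.5 to 37.7 CPM in adherent cells and fell in spheroids from 707, 412, 467 and 448 CPM to 97.9, 74.6, 62.7 and 66.1 CPM. Its interaction was −2.16 ± 0.32 (FDR 3.16e-05), and −1.95 without spheroid shNeg replicate 1. MiR-671-5p and miR-671-3p, arms of 1 hairpin, were both negative, at −1.36 ± 0.23 and −1.99 ± 0.41 (FDR 0.000122 and 0.000849). The value of miR-671-3p became −1.31 without replicate 1, a move of over 1.5 times, and was still called.

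MiR-335-5p, cut from an intron of MEST (chr7:130496111-130496204) and described as a tumor suppressor, had another form than miR-760 and miR-1275. It was at 52.9, 74.1, 69.9 and 54.8 CPM in adherent shNeg and at 145, 96.2, 62.7 and 234 CPM in adherent shRELA. In spheroids, shNeg libraries held 0, 33.6, 27.2 and 45.6 CPM and shRELA libraries 7.97, 13.7, 3.58 and 6.46 CPM. It was thus lower in spheroids than in adherent cells, its groups overlapped in both cultures, and in spheroids the overlap came from shNeg replicate 1 alone. With all libraries, neither change was called (1.10 and −1.77), and the interaction was (−2.87 ± 0.69, FDR 0.00352; −3.27 and FDR 1.2e-06 without that library). The spheroid change without spheroid shNeg replicate 1 is not given here. The study's own analysis lists miR-335-5p as differentially expressed in spheroids, lower with RELA knockdown. The call of the interaction was lost without adherent shRELA replicate 4 (−2.47), spheroid shNeg replicate 2 (−2.63) or 4 (−2.38), or spheroid shRELA replicate 3 (−2.51) or 4 (−2.67). MiR-335-3p gave 0.22 ± 0.65 (FDR 0.847). MiR-29c-3p was another AU-rich negative call, with −1.59 ± 0.40 (FDR 0.00572), from 223, 119, 98.0 and 148 CPM to 56.7, 45.7, 41.6 and 51.3 CPM in spheroids, and it lost its call without 7 of the 16 libraries in turn (−1.57 to −1.21).

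**Figure D3:**
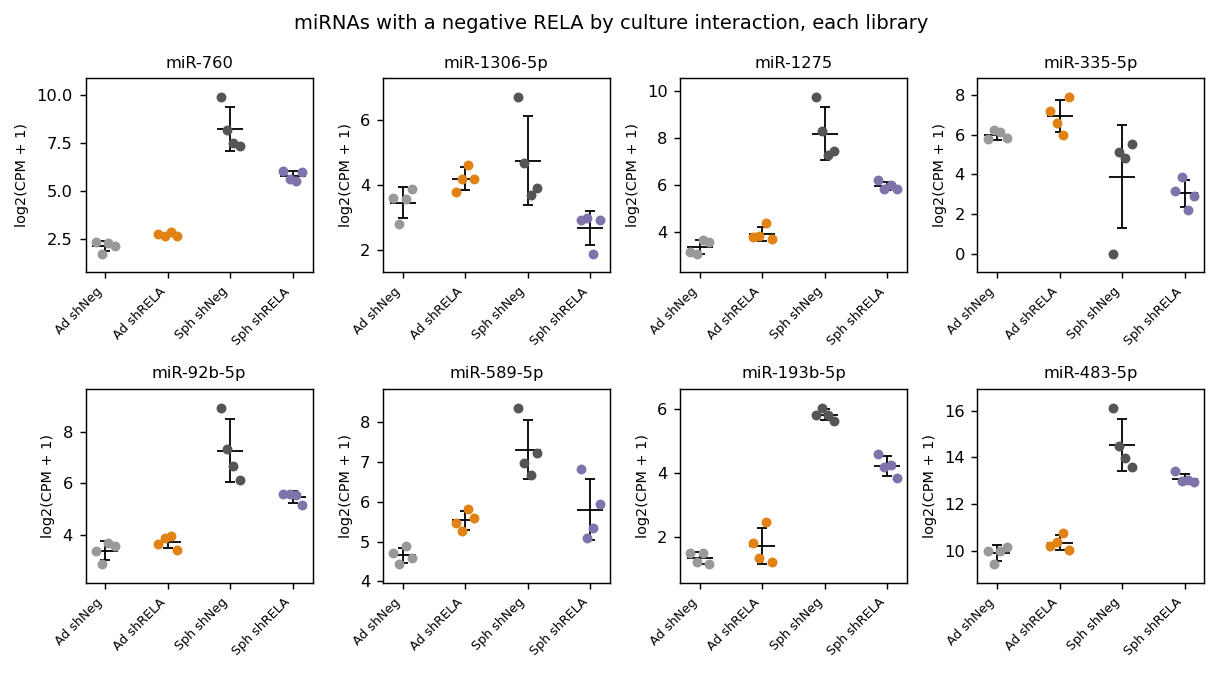
Each library's level as log2(CPM + 1), for 8 miRNAs with a negative interaction, in adherent (Ad) and spheroid (Sph) shNeg and shRELA groups. Points are libraries in the order of replicates 1 to 4, bars are the mean and SD of 4 libraries, and y axes differ between panels and do not start at 0. Spheroid shNeg replicate 1 is the highest library in the panels of miR-760, miR-1275 and miR-483-5p, and in that of miR-335-5p it is at 0.

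Base composition differed between the directions. G and C made up a median of 63.6% of the mature sequence in the 25 negative calls with a sequence, 47.8% in the 36 positive ones and 54.5% in the 795 of 905 tested that matched RefSeq. It was 50.0% in the 302 of these with a mean of at least 10 CPM, a level that 63 of the 69 calls reached. The ranges overlapped, at 30.4% to 73.7% and 31.8% to 60.9%. This is a description of called miRNAs, and whether base composition bears on the counts was not tested. With every library thinned to the lowest total, the interaction gave 52 calls of 1102 tested, 26 in each direction, and 48 of the 69 were among them.

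**Figure D4:**
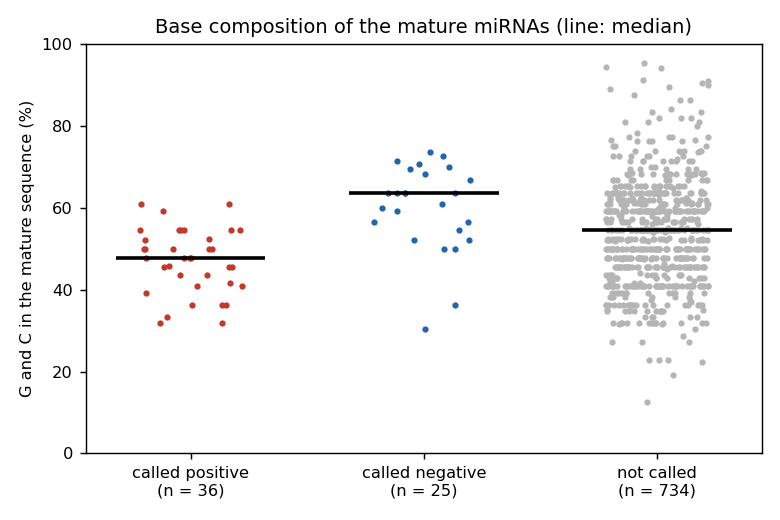
Share of G and C in the mature sequence (y axis, percent) of miRNAs called positive, called negative or not called in the interaction, each point 1 miRNA and the line the median. Negative calls have a median of 63.6% and positive calls 47.8%, with overlapping ranges.

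The other lists are given beside the 4.31% positive and 3.31% negative calls over all miRNAs tested. The miR-30 family had 1 positive call of 11 tested (median 0.71), the miR-302 and miR-371 clusters 1 of 8 (median 1.68, on low counts), and the miR-17-92 list and its paralogs 1 positive and 1 negative of 17 (median 0.29), the latter miR-106b-3p (−1.62 ± 0.28, FDR 0.000122), whose partner miR-106b-5p gave 0.70 ± 0.47. Neither the p53-linked list (6 tested, median 0.37), the hypoxia pair (median −1.56), nor the GABRE and GABRA3 list (6 tested, median 0.05) held a call. Of the 9 miRNAs that the study took forward from these samples, 2 were positive and 1 negative (median 0.69), and none of the 7 it names across conditions was called (median −0.04). Those lists were chosen on these libraries, so they are not independent evidence. Without spheroid shNeg replicate 1, the calls became 2 positive in the miR-30 family, none in the miR-302 and miR-371 clusters and 2 in each direction in the miR-17-92 list. The medians became 0.03 in the miR-17-92 list, 0.19 in the p53-linked list, −0.89 in the hypoxia pair and 0.22 in the GABRE and GABRA3 list. Annotated miRNAs that may be fragments of structural RNAs had a median of −1.76, and −0.82 without spheroid shNeg replicate 1, with 1 negative call of 14 (1 in each direction without that library), miR-4485-3p (−2.04 ± 0.52, FDR 0.00622). That call was lost without 8 of the 16 libraries in turn, over all of which its value was −2.33 to −1.40, and with limma, thinned libraries and only the groups compared.

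Markers of other cell types were few, so their counts stand beside the 7.62% called over all miRNAs tested. White blood cell markers had no call among 3 tested (median 1.22). Of the 4 mesenchymal markers, miR-145-5p alone was called (median 0.48; 2 calls and a median of 0.74 without spheroid shNeg replicate 1). Among the red blood cell and serum miRNAs, miR-486-5p alone was called of 4 (−2.16, FDR 3.16e-05; median −1.08), and miR-122-5p, a liver and serum miRNA, was measured at 14285 to 29403 CPM in all 4 groups with an interaction of −0.76 ± 0.22 (FDR 0.0205). Epithelial miRNAs gave 2 calls of 7, both positive (median 1.08), and miR-200c-3p was at 1641 CPM or more in every library of the 4 groups.

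Spheroid shNeg replicate 1 changed the call of some miRNAs. The 5 calls that were lost without it included miR-625-5p (1.23 ± 0.33, FDR 0.00999; 0.95 and FDR 0.00191 without it), miR-769-3p (−1.19 ± 0.30, FDR 0.00665; −0.94 and FDR 0.00738 without it) and miR-221-3p. Both miR-625-5p and miR-769-3p fell short of the fold threshold there, and their calls were lost without 10 and 11 of the 16 libraries in turn. The 13 that appeared without it included miR-504-5p (1.54 to 2.26, FDR 0.0051) and miR-193a-5p (−1.82 to −2.07, FDR 0.00047) as well as miR-30c-2-3p. No called miRNA named here changed sign, which for the 10 highest and 10 lowest was required by the rule that chose them.

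Other settings ended further calls among those described. With libraries thinned to the lowest total these were miR-145-5p, miR-891a-5p, miR-509-3p, miR-221-3p, miR-221-5p, miR-625-5p, miR-302d-3p, miR-3614-5p and miR-10523-5p on the positive side. On the negative side they were miR-92b-5p, miR-193b-5p, miR-6730-5p, miR-6734-5p and let-7d-3p. With limma they were miR-200b-3p, miR-551b-5p, let-7f-5p, let-7g-5p, miR-17-5p, miR-26a-5p, miR-221-3p, miR-509-3p and miR-625-5p, and miR-335-5p, miR-92b-5p, miR-483-5p, miR-769-3p, let-7d-3p and miR-29c-3p. With only the groups compared they were miR-200b-3p, miR-145-5p, miR-551b-5p, miR-26a-5p, miR-221-3p, miR-302d-3p and miR-625-5p, and miR-335-5p, miR-6730-5p, miR-6734-5p, miR-769-3p, let-7d-3p and miR-29c-3p. With spheroid shNeg replicate 1 left out as well they were let-7a-5p, let-7g-5p, miR-222-3p, miR-26a-5p, miR-221-3p, miR-302d-3p and miR-625-5p. DESeq2 did not call let-7a-5p, miR-17-5p, miR-26a-5p, miR-221-3p or miR-302d-3p. Size factors and library totals also ended miR-17-5p and miR-625-5p. The replicate block ended miR-200b-3p, miR-145-5p, miR-17-5p, miR-26a-5p, miR-302d-3p, miR-509-3p and miR-625-5p, and miR-6730-5p, miR-6734-5p and miR-29c-3p. No filter on low counts ended miR-891a-5p, miR-302d-3p, miR-509-3p, miR-6730-5p, miR-6734-5p and miR-769-3p. A mean of at least 10 CPM ended let-7a-5p and miR-221-3p.

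RELB knockdown served as a comparison with the same shNeg libraries, so the values of the RELA and RELB interactions are linked and are only set side by side. The RELB interaction gave 77 calls of 905 (8.51%), and 39 of the 69 RELA calls were called there with the same sign. RELB values were 1.14 for let-7a-5p, 1.21 for miR-200c-3p, 2.11 for miR-146b-5p and 2.34 for miR-26b-5p, against RELA values of 1.14, 1.91, 2.04 and 1.80. On the negative side they were −2.59 for miR-760, −2.96 for miR-1275 and −2.47 for miR-92b-5p, against −3.52, −3.18 and −2.54. Smaller RELB values were seen for miR-99a-5p (0.85 ± 0.54), miR-125b-5p (0.50 ± 0.28) and miR-891a-5p (0.27 ± 0.41), none of them called.

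The difference between the RELA and the RELB interaction was tested directly, in a contrast from which the shNeg libraries cancel. It gave 13 calls (1.44%), 4 of them among the 69. MiR-378a-3p and miR-378a-5p differed by 1.15 and 1.16 (FDR 0.0051 and 0.0053). With RELB knockdown, miR-378a-3p was at 1557 to 1718 CPM in adherent cells and 831 to 1509 CPM in spheroids. MiR-335-5p differed by −3.55 (FDR 0.0036), with 13.6 to 28.6 CPM in adherent and 12.6 to 16.6 CPM in spheroid shRELB libraries. MiR-509-3p differed by 3.46 (FDR 4.7e-09), and in spheroids it lay at 39.9 to 56.2 CPM with shRELB. Its adherent shRELB level, which also enters the contrast, is not given here. For miR-99a-5p (2.42, FDR 0.057), miR-125b-5p (1.11, FDR 0.036) and let-7a-5p (−0.0024 ± 0.18), no difference passed the threshold. The number of calls in this contrast depended on the libraries: it was 33 (3.67%) without spheroid shNeg replicate 1, which is not in the contrast itself but in the shared fit, and 2 without spheroid shRELB replicate 3.

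**Figure D5:**
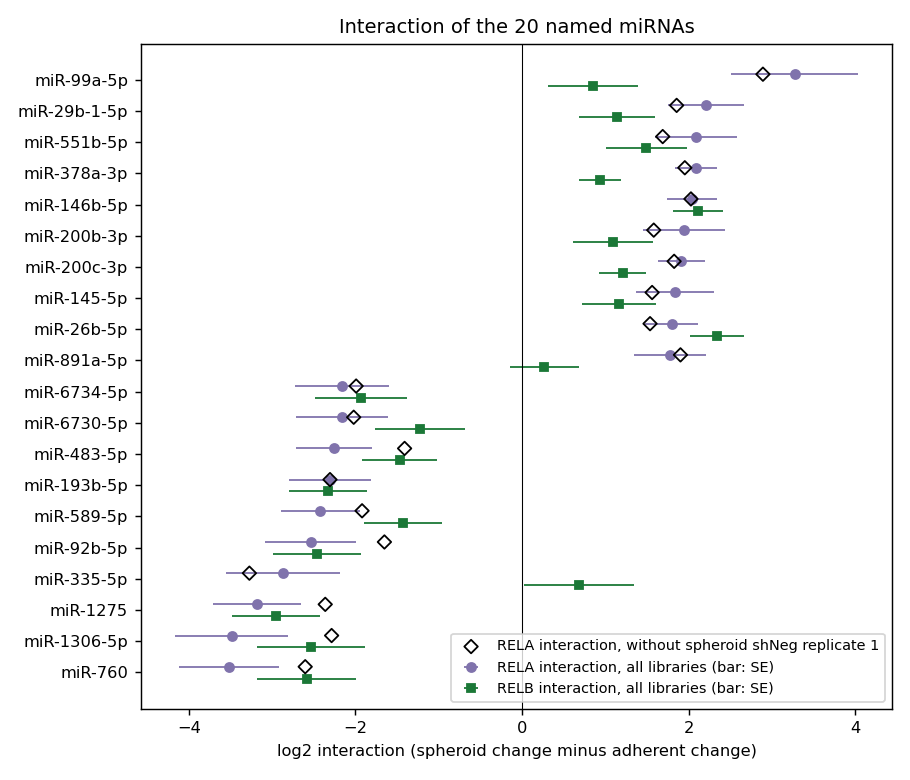
Log2 interaction (x axis) of the 10 highest and 10 lowest named miRNAs, for RELA with all libraries (circles, bars SE), for RELA without spheroid shNeg replicate 1 (diamonds) and for RELB (squares, bars SE). The 20 were chosen as called with the same sign with and without that library, so the kept sign is no check. The RELA and RELB values of miR-335-5p (−2.87 and 0.68) differ in sign.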

How the data were processed

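Small RNA libraries were made by the authors with the QIAseq miRNA kit, whose primers carry UMIs, and were sequenced as single-end reads. Whether UMIs were collapsed is not given in the sources used here. Per the methods, adapters were trimmed with Cutadapt and reads assigned with miRDeep2 to miRBase for GRCh38. The values deposited by the authors are expected counts for 2656 mature miRNAs, not scaled. The table is titled as CPM, but totals differ between libraries and most values are whole, and 3.04% of non-zero values, on 84 miRNAs, were rounded. Identical-looking replicates were looked for, and all differed by more than sampling noise.

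The test covered the 905 miRNAs that reached 1 CPM in 4 libraries or more. All 24 libraries were fitted by group with TMM scaling and edgeR 4.0.16's quasi-likelihood test in R 4.3.3 (common dispersion 0.0888), with FDRs by Benjamini-Hochberg over all tested. Calls needed an FDR below 0.01 and an absolute log2 value above 1. Standard errors are the log2 value divided by the root of F. The test was also run on counts simulated from the fitted group means, whose outcome is not given here. That simulation held no library set apart like spheroid shNeg replicate 1. A count of 0 allows up to 3 counts. Sequences and positions were matched by name to RefSeq (GRCh38.p14), for 795 of 905 tested and 61 of 69 called miRNAs, and host genes were read from GENCODE.

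Named miRNAs are the 10 highest and 10 lowest interactions called both with and without spheroid shNeg replicate 1 at a mean of at least 10 CPM, the 3 largest calls found only with and the 3 found only without that library, 2 to 4 members of each list by abundance or call, and partner arms. No miRNA met a further rule, calls of opposite direction in both cultures. Other calls named were chosen after their values were seen. Members and lists were chosen with earlier results of these data known. Alternatives were other scalings, filters, thresholds, DESeq2 1.42.0, limma 3.58.1 on log2(CPM + 1), a likelihood ratio test, thinning, fewer groups, a replicate block and each library left out.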

Additional observations from a re-analysis of the deposited data

Results flagged for a closer look

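The difference between the cultures in the response to RELA knockdown was itself tested, and 69 miRNAs passed. Of those described, the log2 interaction was 7.56 for miR-10523-5p, 5.36 for miR-3614-5p, 3.87 for miR-125b-2-3p, 3.27 for miR-99a-5p, 3.15 for miR-302d-3p, 2.21 for miR-29b-1-5p and 2.09 for miR-551b-5p. It was further 2.08 for miR-378a-3p, 2.04 for miR-146b-5p, 1.95 for miR-200b-3p, 1.91 for miR-200c-3p, 1.84 for miR-145-5p, 1.80 for miR-26b-5p and 1.78 for miR-891a-5p. It was further 1.74 for miR-221-5p, 1.62 for miR-30a-3p, 1.61 for miR-98-5p, 1.60 for miR-125b-5p, 1.49 for miR-378a-5p, 1.45 for miR-17-5p and 1.43 for miR-222-3p. It was further 1.35 for miR-146a-5p, 1.33 for miR-26a-5p, 1.29 for let-7g-5p, 1.24 for miR-509-3p, 1.23 for miR-625-5p, 1.22 for let-7f-5p and 1.14 for let-7a-5p. It was further 1.07 for miR-221-3p. On the negative side it was −1.19 for miR-769-3p, −1.26 for let-7d-3p, −1.36 for miR-671-5p, −1.37 for miR-483-3p, −1.59 for miR-29c-3p, −1.62 for miR-106b-3p and −1.99 for miR-671-3p. It was further −2.04 for miR-4485-3p, −2.16 for miR-486-5p, −2.16 for miR-6734-5p, −2.16 for miR-6730-5p, −2.25 for miR-483-5p, −2.30 for miR-193b-5p and −2.42 for miR-589-5p. It was further −2.54 for miR-92b-5p, −2.87 for miR-335-5p, −3.18 for miR-1275, −3.49 for miR-1306-5p and −3.52 for miR-760. The values of miR-10523-5p, miR-3614-5p and miR-302d-3p are fitted on groups at or near no counts and are no bound.

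By Dixon's test, which is relative to a group's range, a single library stood apart from the other 3 of its group in some cases. This held in 20 of the 276 groups of miRNA levels and 4 of the 12 groups of library measures looked at. Chance gives about 1 in 20. Some lay close in level, as miR-200c-3p in adherent shNeg replicate 4, at 3264 CPM against 3130 to 3151 CPM. Of the miRNA levels, 7 were in spheroid shNeg replicate 1: let-7b-5p at 6197 CPM, let-7d-5p at 1159.6 CPM, miR-452-5p at 39.6 CPM, miR-760 at 949.8 CPM, miR-1306-5p at 102 CPM, miR-671-3p at 766 CPM and miR-625-5p at 32.3 CPM. In spheroid shRELA replicate 1 these were miR-222-3p at 2562 CPM, miR-30c-2-3p at 85.8 CPM, miR-106b-3p at 6404 CPM and miR-483-5p at 10908 CPM. In spheroid shRELA replicate 4 they were miR-143-3p at 9.88 CPM, miR-224-5p at 260.3 CPM and miR-92b-5p at 34.6 CPM. The others were miR-200c-3p at 3264 CPM in adherent shNeg replicate 4, miR-221-5p at 95.5 CPM in adherent shRELA replicate 4, miR-3614-5p at 2.05 CPM in spheroid shNeg replicate 3, miR-1306-5p at 2.69 CPM in spheroid shRELA replicate 3, miR-1275 at 19.6 CPM in adherent shRELA replicate 3 and miR-486-5p at 27.2 CPM in adherent shNeg replicate 2. Among library measures, adherent shNeg replicate 2 had a total of 3797175 counts and 1043 miRNAs detected, and spheroid shNeg replicate 1 had 432 detected and 69.3% of counts on its 10 most abundant miRNAs.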

How the results depend on the processing

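All 48 called miRNAs described kept the sign of their interaction in every alternative run, and 19 of them were called in each. The interaction gave 69 calls and between 48 and 91 over the other scalings, filters and tests, 81 with only the 16 libraries compared less spheroid shNeg replicate 1 (an alternative added with the data seen) and 109 at an FDR below 0.05. The splits into positive and negative were 34 and 57 with DESeq2 (91 calls), 31 and 43 with a mean of at least 10 CPM, and 30 and 51 in the 81. Each library left out in turn gave 51 to 81 calls. With only the groups compared, RELA knockdown gave 66 calls in spheroids (137 otherwise) and 54 in adherent cells (34). Leaving out 1 library gave 112 to 156 and 25 to 43.

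The difference between the RELA and RELB interactions, 13 calls, gave 29 with DESeq2, 1 with limma, 31 with the likelihood ratio test, 8 with thinned libraries, 31 with only the groups compared, 33 at an FDR below 0.05 and 2 to 33 with each library left out. The cause was not tested.

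Uncalled values changed sign as follows. MiR-1306-3p was −0.89 with thinned libraries and −0.029 with only the groups compared and spheroid shNeg replicate 1 left out. MiR-335-3p was −0.029 with library totals, −0.30 in the latter setting and −0.22 to 0.77 with a library left out. MiR-224-5p was 0.040 with no filter, 0.050 with only the groups compared and −0.12 to 0.14 with a library left out. MiR-143-3p was −0.13 with size factors, −0.15 with library totals, −0.10 with a mean of at least 10 CPM, −0.12 with DESeq2, −0.11 with thinned libraries and −0.10 to 0.42 with a library left out. MiR-452-5p was 0.26 with limma, 0.11 with only the groups compared and spheroid shNeg replicate 1 left out and −1.05 to 0.30 with a library left out.

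Deviations from the group means were correlated between libraries of the same replicate number: of 24 pairs, 4 correlated above 0.1 (−0.52 to 0.43, median −0.04). Libraries of unlike number were not compared, so this does not settle whether the numbers pair the libraries. With the replicate block the calls were 56 in the interaction (30 positive, 26 negative), 124 in spheroids, 31 in adherent cells and 11 between RELA and RELB. The depth of the spheroid shNeg libraries, about a floor of 1.54 to 2.29 CPM, limits what can be said of rare miRNAs.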
